A study of Mus musculus with 6 samples.

Results

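Acetylated histone H3 (H3ac) in acetate-treated mesenchymal stem cells (MSCs) of old mice was compared with that in untreated MSCs of young mice, to find what still differed from young cells after acetate. Of the 6 H3ac libraries of the series, the 4 of the groups Young and OldAcetate were used, 2 per group, and all 24431 of the 24431 regions in the table were compared. Young MSCs were from mice of 3 to 5 months and received no treatment. OldAcetate MSCs were from mice of 18 to 22 months and were given 5 mM sodium acetate for 3 days. Both groups were kept at 2% O2 in αMEM with 10% FBS and 1% penicillin/streptomycin. The groups therefore differed in age and in acetate together, and in this comparison the effects of age and acetate cannot be told apart. The labels give neither the sex of the mice nor whether cells of several mice were pooled, and do not say that the replicates came from separate animals or cultures, so the p-values measure the spread between these libraries, which may be technical.

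Lysines in the tail of histone H3 are acetylated by acetyltransferases, which take the acetyl group from acetyl-CoA, and are deacetylated by histone deacetylases and sirtuins. The mark lies at active promoters and enhancers. Nuclear and cytosolic acetyl-CoA is made from citrate, which the carrier Slc25a1 exports from mitochondria and Acly cleaves, or from acetate by Acss2. In CUT&RUN, an antibody against the mark tethers a nuclease to chromatin in permeabilised cells, and the DNA it releases is sequenced. Reads in a region therefore give its share of the released DNA, and fewer marked cells and less mark per cell cannot be told apart.

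After scaling, no single region differed between OldAcetate and Young past the threshold (an adjusted p under 0.05), and the same held with the values as given. Regions of at least the median level were ranked by p, taking only those whose scaled values did not overlap between groups. Of these, the lowest p for higher values in OldAcetate included regions at Yy1, Vipas39 and Foxc1. The lowest for lower values belonged to regions inside Phldb2 and Bcr and at the start of Arhgap19. The lowest p of all regions was at Ppargc1a, with lower values in OldAcetate. Across regions, H3ac at start sites of genes was slightly higher relative to other regions in both OldAcetate libraries than in both Young libraries. The comparison includes regions not called in OldAcetate, whose part in it was not tested. The promoter sequences below, shown with every CpG in capitals because the regions were also compared by CpG density, are the 250 bases before the start site, 5′ to 3′, from RefSeq (GRCm38). Entries were matched by gene symbol for the 7 genes shown. They belong to regions with the lowest p in each direction that hold a start site (Yy1, Vipas39, Foxc1, Arhgap19 and Stk32b), to Ppargc1a, and to the citrate carrier gene Slc25a1.
Yy1: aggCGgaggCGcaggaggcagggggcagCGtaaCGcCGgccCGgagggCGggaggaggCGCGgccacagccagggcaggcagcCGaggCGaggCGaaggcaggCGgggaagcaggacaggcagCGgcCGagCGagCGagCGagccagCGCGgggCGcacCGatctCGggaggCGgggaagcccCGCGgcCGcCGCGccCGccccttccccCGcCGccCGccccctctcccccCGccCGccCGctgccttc
Vipas39: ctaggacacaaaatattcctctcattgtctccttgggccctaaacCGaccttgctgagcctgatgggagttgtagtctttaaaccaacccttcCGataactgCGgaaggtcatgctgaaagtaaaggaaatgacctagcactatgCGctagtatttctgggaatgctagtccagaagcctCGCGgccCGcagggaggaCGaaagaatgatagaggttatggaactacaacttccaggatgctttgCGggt
Foxc1: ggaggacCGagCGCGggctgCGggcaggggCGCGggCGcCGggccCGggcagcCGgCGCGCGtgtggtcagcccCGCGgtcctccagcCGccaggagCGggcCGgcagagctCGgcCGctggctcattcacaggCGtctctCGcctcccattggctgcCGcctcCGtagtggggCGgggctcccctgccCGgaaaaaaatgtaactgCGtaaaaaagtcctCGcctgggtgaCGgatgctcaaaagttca
Arhgap19: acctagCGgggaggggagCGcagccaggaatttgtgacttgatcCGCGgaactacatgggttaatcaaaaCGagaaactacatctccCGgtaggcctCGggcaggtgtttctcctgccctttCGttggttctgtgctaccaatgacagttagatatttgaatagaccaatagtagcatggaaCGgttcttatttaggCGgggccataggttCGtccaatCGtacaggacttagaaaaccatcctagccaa
Stk32b: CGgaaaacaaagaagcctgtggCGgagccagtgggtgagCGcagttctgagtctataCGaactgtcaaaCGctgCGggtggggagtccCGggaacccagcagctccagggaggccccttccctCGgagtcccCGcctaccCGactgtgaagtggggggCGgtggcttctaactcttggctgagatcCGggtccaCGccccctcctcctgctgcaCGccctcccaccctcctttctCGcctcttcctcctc
Ppargc1a: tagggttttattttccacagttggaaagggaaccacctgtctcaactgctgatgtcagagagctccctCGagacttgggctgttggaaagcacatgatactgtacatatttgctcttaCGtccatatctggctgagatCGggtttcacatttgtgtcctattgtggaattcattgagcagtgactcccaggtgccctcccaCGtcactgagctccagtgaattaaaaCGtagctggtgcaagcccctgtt
Slc25a1: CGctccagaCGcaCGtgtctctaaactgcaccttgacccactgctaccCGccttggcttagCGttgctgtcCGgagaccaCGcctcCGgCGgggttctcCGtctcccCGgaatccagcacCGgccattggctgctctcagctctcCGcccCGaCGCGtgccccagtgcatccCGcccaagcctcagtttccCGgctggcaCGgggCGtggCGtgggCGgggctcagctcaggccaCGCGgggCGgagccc
The windows lie at chr12:108793047-108793296 on the plus strand (Yy1), chr12:87266287-87266536 on the minus strand (Vipas39), chr13:31806396-31806645 on the plus strand (Foxc1), chr19:41802085-41802334 on the minus strand (Arhgap19), chr5:37717154-37717403 on the minus strand (Stk32b), chr5:51567726-51567975 on the minus strand (Ppargc1a) and chr16:17928220-17928469 on the minus strand (Slc25a1). They hold 36 CpGs in Yy1, 29 in Foxc1, 25 in Slc25a1, 15 in Stk32b, 12 in Arhgap19, 9 in Vipas39 and 5 in Ppargc1a. Over the 32851 promoter windows of the RefSeq table the median was 6 CpGs, and over the 14937 windows inside an H3ac region it was 15. The Yy1, Foxc1 and Slc25a1 windows were thus above the median of marked promoters, and the Arhgap19, Vipas39 and Ppargc1a windows below it.

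The 24431 regions covered 201 Mb and had a median length of 5500 bp. A protein-coding gene started inside or within 1 kb of 11165 regions and of none of the other 13266. Library totals were between 2397539 and 3039481 reads. Over all regions and the 4 libraries, the median was 45 reads per region and library, at which the error from counting was 14.9%. Each region name carries the letters Y, O or AC in some combination. These are not defined in the labels and were read as marking the groups (Young, Old and OldAcetate) in which the region was called. By this reading, 24423 regions were called in Young and only 8 were not, whereas 1758 were not called in OldAcetate. The region set was thus close to the set of Young regions, a fact that bears on every value summed over regions, and its part in them was not tested.

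The MSC label was checked against marker genes. All 18 of the 18 stromal stem cell markers had an H3ac region at a start site, among them Ly6a (Sca-1), Pdgfra, Prrx1 and Cxcl12. Their levels were between 2.02 and 6.55 RPM per kb (RPM is reads per 1000000 of the library, here divided by region length), against a median of 3.26 over all start-site regions. Of 12 haematopoietic and macrophage markers, only Cd68, Csf1r and Spi1 had a region, and the defining genes Ptprc, Itgam, Tyrobp and Adgre1 had none. The Cd68 region also covers the starts of Eif4a1 and Mpdu1, so its value is shared with them. A region was listed for Klf1 alone of 6 erythroid markers, for Erg alone of 9 endothelial markers and for 0 of 7 skeletal muscle markers. The summed level of the 3 haematopoietic regions was 77.6 and 70.7 RPM in Young and 58.5 and 70.1 RPM in OldAcetate, values as given that differed little between Young replicate 2 and OldAcetate replicate 2. After scaling, the median log2 fold change of the 3 regions was 0.03 and the groups overlapped, and Cd68 (0.05) and Spi1 (0.03) were near 0. The third region, that of Csf1r (the receptor for the macrophage growth factor M-CSF) was at 21.4 and 19.2 RPM in Young and 11.4 and 14.6 RPM in OldAcetate, a log2 fold change of -0.52 (SE 0.22) that did not pass the threshold in limma's test (adjusted p = 0.750). The part of such cells in other results was not tested.

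The amount of H3ac over all regions was compared first, with the values as given, because scaling removes a shift shared by all regions. The share of reads in regions was 64.8% and 57.8% in Young and 57.3% and 56.3% in OldAcetate. OldAcetate replicate 1 was within 1 percentage point of Young replicate 2, and Young replicate 1 stood above the other 3 libraries. The 95% Wilson intervals ran from 57.7% to 57.9% in Young replicate 2 and from 57.2% to 57.3% in OldAcetate replicate 1, and cover counting error only. The mean share was 61.3% ± 4.98 (SD, n = 2) in Young and 56.8% ± 0.710 (SD, n = 2) in OldAcetate, a difference of -4.53 percentage points against a pooled SD between replicates of 3.56 points (exact two-sided permutation test, p = 0.333, the smallest p that 2 against 2 libraries allow). Without Young replicate 1 the difference was -1.004 percentage points, and without Young replicate 2 it was -8.05 points.

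The median level of a region, on the log2(RPM + 0.5) scale, was 4.24 and 4.07 in Young and 4.06 and 4.03 in OldAcetate. The groups did not overlap, but the gap between the nearest libraries was small beside the gap between the 2 Young replicates. Over all regions, each median is a whole number of reads (56 and 40 in Young, 48 and 38 in OldAcetate). The gap between the nearest libraries was smaller than the step made by 1 read, so overlap or its absence is at the limit of this measure. The difference of the group means was -0.11, so that OldAcetate was at 92.4% of Young, against a pooled SD of 0.09 (exact two-sided permutation test, p = 0.333, again the smallest possible). Over the 19702 regions coded for all 3 groups, the medians were 4.43 and 4.27 in Young and 4.27 and 4.24 in OldAcetate, and there OldAcetate replicate 1 lay just above Young replicate 2. Over autosomal regions only, the difference was -0.08 and the groups also overlapped. Without Young replicate 1 the difference over all regions was -0.03, and without Young replicate 2 it was -0.20, so its size rested on which Young library was used.

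**Figure D1:**
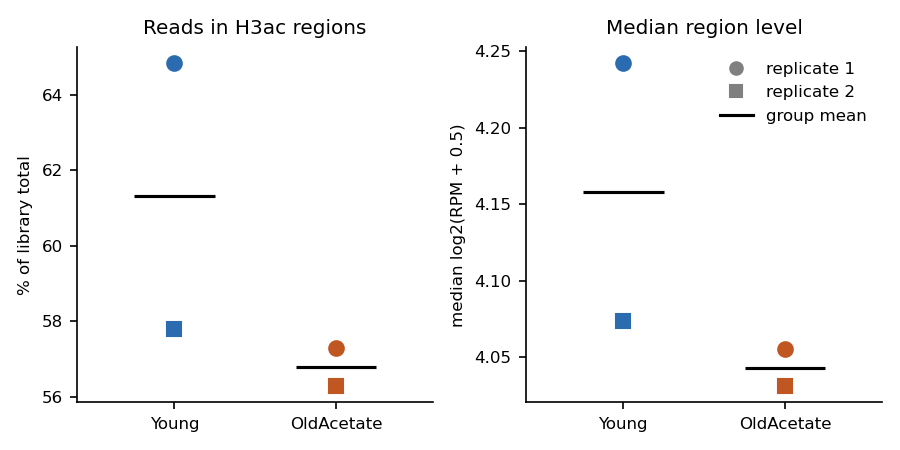
Share of reads in H3ac regions (left, % of the library total) and median level of a region (right, log2(RPM + 0.5), values as given) in each of the 4 libraries, with circles for replicate 1, squares for replicate 2 and bars for group means. The axes do not start at 0. Young replicate 1, at 64.8% and 4.24, stands above the other 3 libraries, which lie between 56.3% and 57.8% and between 4.03 and 4.07.

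By the measures below, libraries of different groups were nearly as alike as replicates, although every pair across groups was slightly farther apart than both replicate pairs. After scaling, the median absolute log2 difference over regions was 0.19 between the 2 Young libraries and 0.20 between the 2 OldAcetate libraries, and it was between 0.20 and 0.21 for the 4 pairs of a Young and an OldAcetate library. The share of regions that differed by more than 2-fold was 0.905% within Young and 1.15% within OldAcetate, and between 1.19% and 1.38% across groups. Pearson correlations across the 24431 regions, given as a description, were 0.946 for both replicate pairs and between 0.939 and 0.943 across groups. The error from counting (14.9% at the median read number) enters every pair, but more so where depth is lower. The median was 56 and 40 reads per region in Young and 48 and 38 in OldAcetate. The pair with the lowest depth, replicate 2 of each group, was also the farthest apart by each measure. At this depth the measures can therefore miss a small difference between groups, and the part of counting error was not tested.

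Single regions were then tested with limma over the whole table. After scaling, 0 of 24431 regions passed an adjusted p of 0.05 (percent called 0), the lowest adjusted p was 0.735, and 1587 regions (6.5%) had an unadjusted p under 0.05, of which 783 (3.2%) had higher and 804 (3.29%) lower values in OldAcetate. Tests on reads recovered from the values also called 0 regions, with 1677 at an unadjusted p under 0.05 in edgeR and 89 in DESeq2. With the values as given, 0 regions were called again (percent called 0, lowest adjusted p = 0.171). Of the 1858 regions with an unadjusted p under 0.05 (7.61%) there, 172 (0.704%) had higher and 1686 (6.9%) lower values in OldAcetate, and the median log2 fold change over all regions was -0.11. The balance of directions thus turned on the scaling, while the absence of calls did not. Scaled values of the groups did not overlap in 4364 regions (17.9%) with higher and 4393 (18%) with lower values in OldAcetate.

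The precision of these data limited what could be detected. The 95% interval of the fold change lay within a 2-fold change in either direction for 22122 regions (90.5%) and within 1.5-fold for 11289 regions (46.2%). For most regions a difference of more than 2-fold was therefore outside the interval, whereas for most a difference of 1.5-fold was within it. The median SE of a log2 fold change was 0.22, and 5% of regions were below -0.44 and 5% above 0.40. A log2 fold change beyond 1 in either direction was found in 83 regions (0.340%), 9 of them with higher and 74 with lower values in OldAcetate. All 83 lay below the median level, and 82 of them in the 25% of regions with the lowest level. Of the 74 with lower values, 61 were coded Y alone and 10 were coded O and Y, and the code comes from the same libraries, so this is a description.

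**Figure D2:**
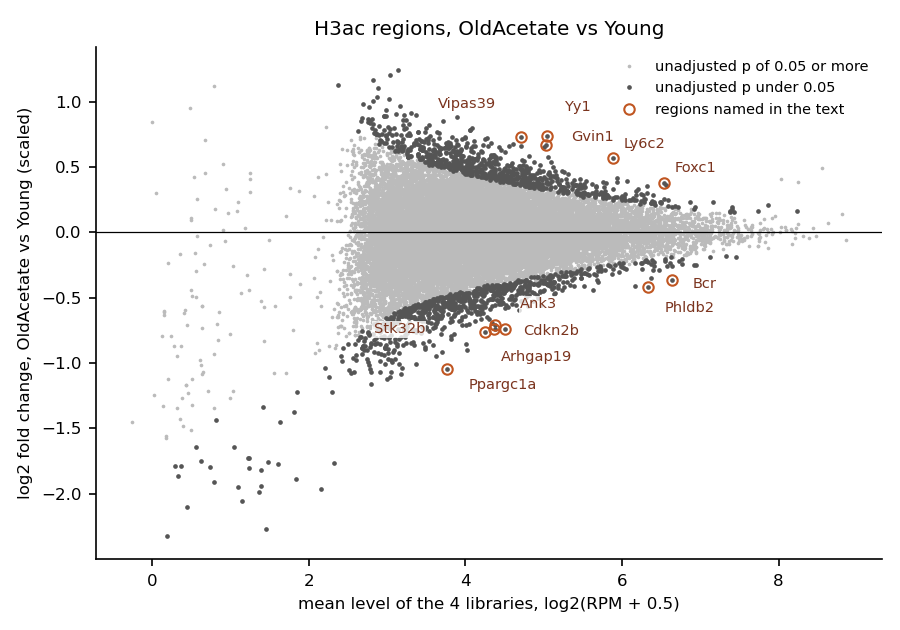
Scaled log2 fold change of OldAcetate vs Young (vertical axis) against the mean level of the 4 libraries (horizontal axis, log2(RPM + 0.5)) for the 24431 regions. Dark points mark the 1587 regions with an unadjusted p under 0.05, and circles mark 12 regions named by their genes; changes beyond 1 on the log2 scale lie at low levels, and Ppargc1a is the highest of them in level.

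Regions with higher values in OldAcetate were led by Yy1, which encodes a zinc finger transcription factor found at promoters and enhancers. Its region (chr12:108791501-108802500, covering the start site) was at 34.9 and 19.6 RPM in Young and 39.7 and 41.3 RPM in OldAcetate. The OldAcetate libraries were close (SD 1.16 RPM), which the choice by low p favours, whereas the Young replicates were far apart (SD 10.8). The log2 fold change was 0.73 (SE 0.17), with an adjusted p in limma of 0.735, the value shared by all regions chosen here for their low p. Leaving out single libraries moved it between 0.41 (without Young replicate 2) and 1.06 (without Young replicate 1).

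The region at chr12:87264001-87269500 holds the start sites of Vipas39, a vesicle sorting factor that partners Vps33b, and of Ahsa1, an activator of the chaperone Hsp90. Its values were 22.4 and 19.2 RPM in Young and 29.2 and 35.0 RPM in OldAcetate, a log2 fold change of 0.73 (SE 0.18). Both OldAcetate libraries were above both Young libraries, but only regions with separate scaled groups could be chosen here. This region and that of Yy1 lie on chromosome 12, where the median log2 fold change over 1039 regions was -0.00 and 38 regions (3.66%) had higher values at an unadjusted p under 0.05, close to the 3.2% of the whole table.

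Foxc1 encodes a forkhead factor of skeletal and stromal progenitors. Its broad region of 30500 bp (chr13:31793001-31823500) was at 86.2 and 82.1 RPM in Young and 108 and 95.1 RPM in OldAcetate, a log2 fold change of 0.38 (SE 0.10). There were also 2 intergenic regions in this set. The region at chr7:106235001-106245500, 19675 bp from the nearest start site, that of the interferon-inducible GTPase gene Gvin1, was at 23.0 and 30.2 RPM in Young and 37.3 and 40.9 RPM in OldAcetate (log2 fold change 0.67, SE 0.17), and 46.3% of its bases are repeats. Without Young replicate 1 its log2 fold change was 0.39, and without Young replicate 2 it was 0.94. The region at chr15:75084501-75088000, nearest to the surface antigen gene Ly6c2, was at 42.4 and 58.8 RPM in Young and 60.1 and 78.0 RPM in OldAcetate (log2 fold change 0.57, SE 0.15). Without Young replicate 1 it was 0.25, without OldAcetate replicate 2 it was 0.37 and without Young replicate 2 it was 0.88. Here 59.4% of bases are repeats, and the level of 17.1 RPM per kb was far above the 2.88 RPM per kb of the median region.

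Among regions with lower values in OldAcetate, that inside Phldb2 (chr16:45868501-45897000, overlapping exons) had the lowest p. Phldb2 encodes a protein that anchors microtubules at the cell cortex. The region was at 98.0 and 93.9 RPM in Young and 69.6 and 63.0 RPM in OldAcetate, a log2 fold change of -0.42 (SE 0.10). The region inside Bcr, a regulator of small GTPases, spans 42000 bp (chr10:75090501-75132500) and was at 124 and 109 RPM in Young and 83.3 and 83.8 RPM in OldAcetate, a log2 fold change of -0.36 (SE 0.09). Both are broad regions within gene bodies. In both, the replicates of each group were closer to each other than to the other group, but both were chosen for separate groups and low p.

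At the start site of Arhgap19, which encodes a GTPase-activating protein, the values were 25.3 and 24.9 RPM in Young and 14.1 and 12.9 RPM in OldAcetate (chr19:41795501-41803500). The log2 fold change was -0.76 (SE 0.20), and the replicates differed by little in either group (SD 0.295 and 0.837 RPM). The choice of regions with separate groups and low p favours close replicates, so this closeness is no result. The start-site region of the kinase gene Stk32b (chr5:37717001-37727000) was at 30.9 and 24.1 RPM in Young and 17.1 and 12.9 RPM in OldAcetate, a log2 fold change of -0.74 (SE 0.20). An intergenic region on chromosome 4 (chr4:89358501-89370500), 47462 bp from the start of the cell cycle inhibitor gene Cdkn2b, was at 29.6 and 30.2 RPM in Young and 13.1 and 20.4 RPM in OldAcetate (log2 fold change -0.74, SE 0.20). Its log2 fold change was -0.41 without OldAcetate replicate 1 and -1.06 without OldAcetate replicate 2. The region over the start sites of Cdkn2a and Cdkn2b themselves (chr4:89286001-89312500) was at 0.05 (SE 0.10) on the same log2 scale. In an intron of Ank3, the gene of the membrane adaptor ankyrin-G, the values were 31.6 and 23.3 RPM in Young and 14.4 and 15.8 RPM in OldAcetate (chr10:69628001-69638500, log2 fold change -0.71, SE 0.20). The Cdkn2b and Ank3 regions were coded Y alone.

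The region of Ppargc1a was chosen after its values were seen, since it lies below the median level that the naming rule asks for. Ppargc1a encodes PGC-1α, a coactivator of genes for mitochondria and oxidative metabolism. The region (chr5:51564501-51569500, start site included) was at 22.4 and 17.6 RPM in Young and 9.41 and 7.92 RPM in OldAcetate. Both OldAcetate libraries were thus under the lower Young library by a wide margin. The region was taken up with its low p known. That choice favours a wide margin and a narrow range when libraries are left out, so neither is a result. The log2 fold change was -1.04 (SE 0.24, 95% interval from -1.52 to -0.56), and it stayed between -1.15 and -0.94 when single libraries were left out. The unadjusted p of 8.99e-05 was the lowest of the 24431 regions, with an adjusted p in limma of 0.735 after scaling and 0.171 with the values as given. Among the 83 regions beyond a log2 change of 1 it had the highest level, with a mean of 14.3 RPM, and its promoter holds few CpGs, as printed above.

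**Figure D3:**
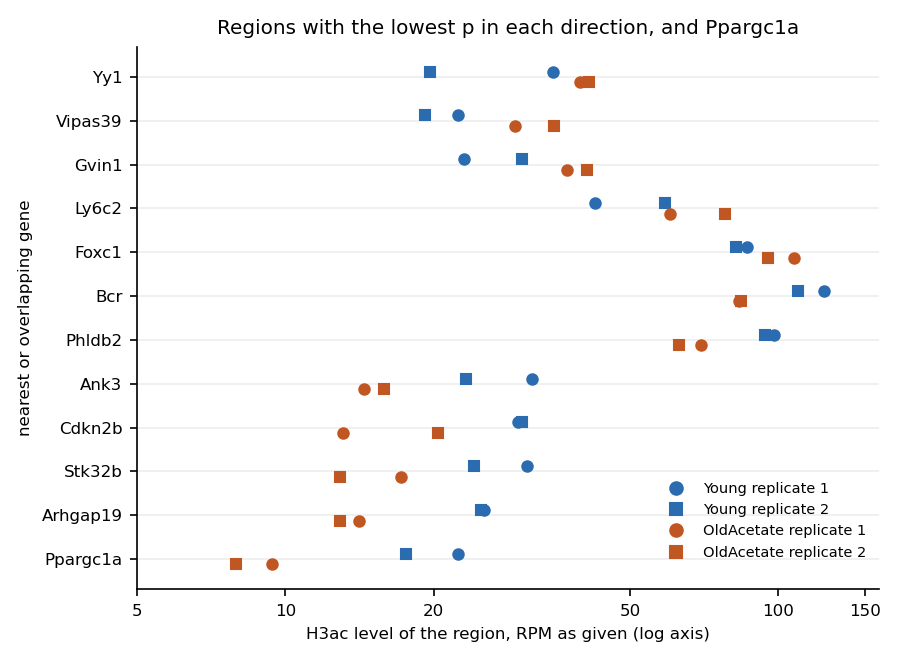
H3ac level in RPM as given (horizontal log axis) of 12 regions in each library, with blue for Young, orange for OldAcetate, circles for replicate 1 and squares for replicate 2. Rows are named by the nearest or overlapping gene and ordered by log2 fold change, from Yy1 (0.73) to Ppargc1a (-1.04). The naming rule took only regions with separate scaled groups, and Ppargc1a was chosen after its values were seen. That the 2 groups are separate in every row is thus no result, and the gap is narrow at Ly6c2 (58.8 and 60.1 RPM).

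Regions were then compared by class. By their codes, the 1139 regions coded Y alone were at a median of -0.34 (log2 fold change, scaled) and the 618 coded O and Y at -0.30, against 0.02 for the 19702 coded for all 3 groups. The codes come from the same libraries, so these values are a description. By position, over the 11165 regions within 1 kb of a start site the median scaled log2 fold change was 0.05, whereas it was -0.05 over 3872 intronic regions, -0.04 over 2791 regions that overlap exons inside genes and -0.04 over 6603 intergenic regions. Of the start-site regions, 503 (4.51%) had higher and 194 (1.74%) lower values at an unadjusted p under 0.05, against 3.2% and 3.29% over all regions. In intronic regions these numbers were 79 (2.04%) and 196 (5.06%). The median level of start-site regions exceeded that of other regions by 0.38 and 0.44 (log2) in the Young libraries and by 0.57 and 0.46 in the OldAcetate libraries. Both OldAcetate values were above both Young values, although OldAcetate replicate 2 and Young replicate 2 were only a little apart. The difference between groups was 0.11 against a pooled SD of 0.06 (exact two-sided permutation test, p = 0.333, the smallest possible), and it does not depend on the scaling factor of a library. Leaving out single libraries moved it between 0.06 (without OldAcetate replicate 1) and 0.16 (without OldAcetate replicate 2). The 1139 regions coded Y alone and the 618 coded O and Y were included, and their part in this difference was not tested.

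Regions of high CpG density also had higher values, but density and position were not separate properties. Start-site regions made up 4588 of the 4886 regions in the group of highest density and 319 of the 4887 in that of lowest. When all regions were split into 5 groups of nearly equal size by CpGs per 100 bp of reference sequence, the median scaled log2 fold change was -0.03, -0.04, -0.03, 0.04 and 0.07 from the lowest to the highest density. The lowest 3 of these groups were not in order. In the group of highest density 266 of 4886 regions (5.44%) had higher and 73 (1.49%) lower values at an unadjusted p under 0.05. The regions of that group deviated from the 4-library mean by -0.05 and -0.00 in Young and by 0.06 and 0.02 in OldAcetate, so that replicate 1 of each group was far from replicate 2. Among start-site regions alone, the medians of the same 5 groups were -0.01, -0.00, 0.02, 0.05 and 0.08. Among the other regions they were -0.03, -0.05, -0.06, -0.04 and -0.01, with no such order. The difference between CpG-rich and CpG-poor regions, a measure added after the data had been seen, was -0.07 and -0.03 in Young and 0.08 and 0.01 in OldAcetate. Its group difference was 0.10 against a pooled SD of 0.04 (exact two-sided permutation test, p = 0.333). The median density was 1.09 CpGs per 100 bp in regions coded Y alone and 1.06 in those coded O and Y. It was 1.50 in regions coded for all 3 groups. The part of the codes in the order by CpG density was not tested.

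**Figure D4:**
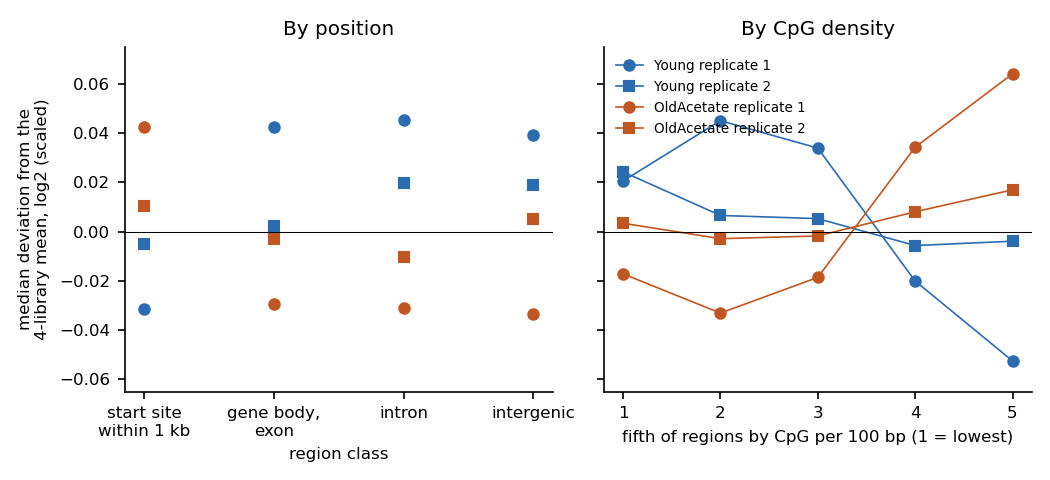
Median deviation of scaled log2 values from the 4-library mean (vertical axis) in each library, by position class (left) and in 5 groups of regions from lowest to highest CpG density (right). Blue is Young, orange is OldAcetate, circles are replicate 1 and squares are replicate 2; the order of the libraries turns over between start-site regions, where OldAcetate is at 0.04 and 0.01, and intronic regions, where it is at -0.03 and -0.01, and replicate 1 of each group lies farther from 0 than replicate 2 in both.

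Exact matches to 9 short motifs were counted on both strands in the 250 bases before the start site over the 32851 windows, as a description. The motifs can overlap, and none contains another. The Sp/KLF GC box (GGGCGG) was present in 35.7% of all windows. Start-site regions with it had a median log2 fold change of 0.05 and those without it 0.02, and the former also had more CpGs (2.42 against 1.71 per 100 bp). The 312 regions with the YY1 motif (AAGATGGCG, 1.40% of windows) were at 0.07 against 0.04, the 395 with the NRF1 motif (GCGCATGCG, 1.75% of windows) at 0.07 against 0.04, and the 1847 with the ETS motif (CCGGAAG, 8.86% of windows) at 0.07 against 0.04. In all 3 cases the regions with the motif also had more CpGs. For the NRF1 motif the libraries of the groups overlapped. There the difference with minus without the motif was -0.02 and 0.01 in Young and 0.05 and -0.01 in OldAcetate. The AP-1 motif (TGANTCA, 7.81% of windows) and the TATA box (TATAAA, 13.6% of windows) went with fewer CpGs and lower medians, 0.01 against 0.05 and 0.02 against 0.05. For the CCAAT box (CCAAT, 37.4% of windows), the E-box (CACGTG, 7.15%) and the CRE (TGACGTCA, 1.79%) the medians with and without the motif were within 0.01 of each other. A match is a run of letters and not a measured binding site.

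Other properties of the regions were compared in the same way. In 5 groups of nearly equal size by mean level over the 4 libraries, the group of lowest level was at a median of -0.07 (log2 fold change, scaled), with deviations of 0.05 and 0.04 in Young and -0.02 and -0.02 in OldAcetate, and the other 4 groups had medians between -0.00 and 0.02. The X chromosome held 408 regions, and their median deviation relative to autosomal regions was -0.08 and 0.05 in Young and 0.07 and -0.04 in OldAcetate. These values overlapped, and their difference of 0.03 was below the pooled SD of 0.09 (exact two-sided permutation test, p = 0.667). No region was listed at Xist or on the Y chromosome. Autosomes had medians between -0.02 (chromosome 14) and 0.02 (chromosome 3). The longest 8144 regions differed from the shortest 8144 by 0.01 between groups (exact two-sided permutation test, p = 0.667), and the 8144 of highest GC from the 8144 of lowest GC by 0.01 (exact two-sided permutation test, p = 1). GC content gave no order of the kind seen with CpG density.

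The start-site regions of gene lists for MSC functions were then described. In 12 lists of 226 genes, 199 genes had a region, in 191 distinct regions, and 0 were called (percent called 0 over all regions). At an unadjusted p under 0.05, 9 of the 191 (4.71%) had higher and 4 (2.09%) lower values, against 4.51% and 1.74% over all start-site regions. The largest change in either direction was 0.73 on the log2 scale, and the 95% interval lay within 2-fold for 184 of the 191. The lists were thus close to start-site regions at large. With the values as given, start-site regions had a median of -0.07. List medians were then -0.07 (adipogenic), -0.04 (stromal), -0.01 (acetyltransferases), -0.06 (senescence), -0.06 (hypoxia), -0.05 (interferon), -0.19 (chondrogenic), -0.15 (deacetylases) and -0.11 (housekeeping). Only limb position (0.01) and acetyl-CoA supply (0.03) were positive. Scaled groups overlapped in the adipogenic, limb position, acetyltransferase, deacetylase, hypoxia and housekeeping lists. For single regions, separate groups are common, in 17.9% of all regions with higher and 18% with lower values in OldAcetate. Where a region covers the starts of several genes its value is shared. This also holds for the regions given below for Sox6, Shox2, Mpc2, Sirt6, Hdac3, Sirt3, Hmgb1, Ccl2, Aldoa, Ifi27, Psmb9, Tbp and Cd68.

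Osteogenic genes had small positive values in most cases. Of 25 genes, 21 had a region, and 18 of these 21 (85.7%) had a positive scaled log2 fold change, with a median of 0.08, while 59.8% of all start-site regions were positive with a median of 0.05. None of the 21 was called, and 0 had an unadjusted p under 0.05. The region of Runx2, the master factor of osteoblast commitment, was at 48.4 and 43.7 RPM in Young and 49.1 and 50.1 RPM in OldAcetate (log2 fold change 0.22, SE 0.13). Sp7 (osterix), which acts after Runx2, shares its region with the start of Aaas and was at 105 and 91.1 RPM in Young and 93.8 and 90.1 RPM in OldAcetate (0.03, SE 0.09), with overlapping groups. The collagen gene Col1a1 was at a log2 fold change of 0.14 (SE 0.10), the ligand gene Bmp2 of 0.12 (SE 0.18) and the osteoclast decoy receptor gene Tnfrsf11b of 0.05 (SE 0.14). With the values as given, the median of the list was -0.04.

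Adipogenic genes were divided, with 9 of 17 positive and a median of 0.04. The region of Pparg, the master regulator of adipocytes, was at 24.0 and 19.2 RPM in Young and 23.5 and 27.9 RPM in OldAcetate (log2 fold change 0.36, SE 0.18), and the scaled groups did not overlap. The only member with an unadjusted p under 0.05 was the triglyceride lipase gene Pnpla2, at 175 and 152 RPM in Young and 165 and 173 RPM in OldAcetate (0.16, SE 0.07). This is a region of 57000 bp that also covers the start sites of neighbouring genes, Cend1 and Slc25a22 among them, and its value is shared by all of them. The adipogenic factor gene Cebpb was at 0.16 (SE 0.11), the preadipocyte factor gene Zfp423 at 0.19 (SE 0.15) and the lipoprotein lipase gene Lpl at -0.14 (SE 0.20). Chondrogenic genes pointed the other way, with 3 of 11 positive and a median of -0.07. There the cartilage collagen gene Col2a1 was at 39.2 and 30.2 RPM in Young and 28.9 and 25.0 RPM in OldAcetate (-0.24, SE 0.16), and the proteoglycan gene Acan at -0.37 (SE 0.28), while Prg4 (lubricin) was at 0.20 (SE 0.15) and the transcription factor gene Sox6 at 0.16 (SE 0.13). In neither list was a member called.

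The stromal stem cell markers had a median of 0.07, and 12 of 18 were positive. Pdgfra was at 84.6 and 71.5 RPM in Young and 72.9 and 79.2 RPM in OldAcetate (0.08, SE 0.11), and Ly6a at 48.4 and 35.1 RPM in Young and 48.1 and 41.7 RPM in OldAcetate (0.23, SE 0.14). In both the groups overlapped. The limb mesenchyme factor gene Prrx1 had an unadjusted p under 0.05 (0.15, SE 0.07), while the ecto-nucleotidase gene Nt5e (0.29, SE 0.15), the adhesion gene Alcam (-0.10, SE 0.15) and the niche chemokine gene Cxcl12 (0.19, SE 0.15) did not. Limb position genes had 7 distinct regions, 5 of them positive, with a median of 0.13. A single region of 68500 bp covers the start sites of the Hoxc genes from Hoxc4 to Hoxc11, and was at 234 and 215 RPM in Young and 261 and 219 RPM in OldAcetate (0.21, SE 0.07, and 0.09 without OldAcetate replicate 1). Shox2 was at 0.18 (SE 0.10) and Meis1 at 0.13 (SE 0.13).

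For the supply of acetyl-CoA, all 17 of the 17 genes had a region, 12 were positive and the median was 0.14. The libraries were closer than this value: the median scaled deviation of the list was -0.05 and -0.03 in Young and 0.05 and 0.01 in OldAcetate. Acss2, the enzyme that makes acetyl-CoA from acetate outside mitochondria, had the only unadjusted p under 0.05 of this list. Its region, shared with the start of Ggt7, was at 22.0 and 24.5 RPM in Young and 29.2 and 29.2 RPM in OldAcetate (0.44, SE 0.18), with both OldAcetate libraries above both Young libraries. The mitochondrial enzyme gene Acss1 was at 22.4 and 19.2 RPM in Young and 17.5 and 11.3 RPM in OldAcetate (-0.43, SE 0.22), and without OldAcetate replicate 2 its log2 fold change was -0.14, without OldAcetate replicate 1 -0.73. Slc25a1 was at 40.5 and 31.9 RPM in Young and 31.9 and 31.7 RPM in OldAcetate (-0.06, SE 0.16, 95% interval from -0.37 to 0.26). Acly was at 29.9 and 22.9 RPM in Young and 27.2 and 16.7 RPM in OldAcetate (-0.18, SE 0.20). For both genes the groups overlapped. Acaca, which uses acetyl-CoA for fatty acid synthesis, was at 0.19 (SE 0.14), and the pyruvate carrier genes Mpc2 and Mpc1 at 0.07 (SE 0.17) and -0.12 (SE 0.19).

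Among the enzymes that write the mark, 13 of 14 genes had a region, 9 were positive and the median was 0.10. Ep300, the gene of the acetyltransferase p300, was at 18.4 and 16.3 RPM in Young and 25.9 and 18.8 RPM in OldAcetate (0.45, SE 0.20), where OldAcetate replicate 1 stood apart from the other 3 libraries and the log2 fold change without it was 0.24. The acetyltransferase genes Kat2b, Kat8 and Hat1 were at 0.15 (SE 0.11), 0.31 (SE 0.27) and 0.09 (SE 0.28). Among deacetylases, sirtuins and their corepressors, 8 of 18 were positive and the median was -0.04. Sirt6, an NAD-dependent deacetylase of H3 lysines, was at 10.5 and 9.80 RPM in Young and 15.1 and 13.8 RPM in OldAcetate (0.60, SE 0.24). Hdac3, the catalytic partner of the NCoR corepressors, was at 35.2 and 39.6 RPM in Young and 26.2 and 27.1 RPM in OldAcetate (-0.36, SE 0.16, and -0.20 without Young replicate 2). These 2 genes had separate groups and an unadjusted p under 0.05 in opposite directions. Over all start-site regions, 4.51% had higher and 1.74% lower values at such a p, and separate groups are common over all regions. Hdac2 was at 0.09 (SE 0.20) and Sirt3 at -0.07 (SE 0.20).

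The senescence and secretory list had a median of 0.06, with 13 of 20 regions positive. The shared Cdkn2a and Cdkn2b region was at 96.4 and 87.4 RPM in Young and 89.0 and 85.9 RPM in OldAcetate. The chromatin protein gene Hmgb1 was at 0.36 (SE 0.21), Cdkn1b (p27) at 0.14 (SE 0.09), the chemokine gene Ccl2 at -0.06 (SE 0.10) and Igfbp7 at 0.08 (SE 0.12). In the list of hypoxia and glycolysis genes, all 24 of the 24 genes had a region, 16 were positive and the median was 0.05. Epas1 (HIF-2α) was at 17.8 and 19.6 RPM in Young and 21.2 and 25.0 RPM in OldAcetate (0.41, SE 0.20, and 0.26 without Young replicate 1), and Egln1, whose product hydroxylates HIF-α for its degradation, at 36.2 and 33.9 RPM in Young and 24.2 and 26.7 RPM in OldAcetate (-0.34, SE 0.16). The glycolytic gene Aldoa was at 0.27 (SE 0.13), and these 3 genes had an unadjusted p under 0.05, whereas the mitophagy receptor gene Bnip3 (0.17, SE 0.13) did not.

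Interferon response genes had a median of 0.06, with 9 of 15 regions positive and 0 at an unadjusted p under 0.05. The guanylate-binding protein genes Gbp3 and Gbp2 were at 0.62 (SE 0.35) and 0.31 (SE 0.20), Ifi27 at 0.18 (SE 0.12) and the immunoproteasome gene Psmb9 at -0.35 (SE 0.28). The median of the housekeeping genes was 0.00, with 5 of 10 positive, yet the widest change of all list members was found there. Hprt, the X-linked gene of a purine salvage enzyme, was at 15.8 and 12.7 RPM in Young and 10.1 and 5.84 RPM in OldAcetate (-0.73, SE 0.27), with -0.37 without OldAcetate replicate 2 and -1.09 without OldAcetate replicate 1. There too the 14-3-3 gene Ywhaz was at 0.28 (SE 0.13, and 0.14 without OldAcetate replicate 1), and both genes had an unadjusted p under 0.05. Tbp (0.33, SE 0.16) and Ppia (-0.03, SE 0.19) were not at that level. Of the markers of other cells, Cd68 was at 0.05 (SE 0.16), Spi1 at 0.03 (SE 0.19), Klf1 at -0.37 (SE 0.34) and Erg at -0.14 (SE 0.22), with overlapping groups in all 4.

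**Figure D5:**
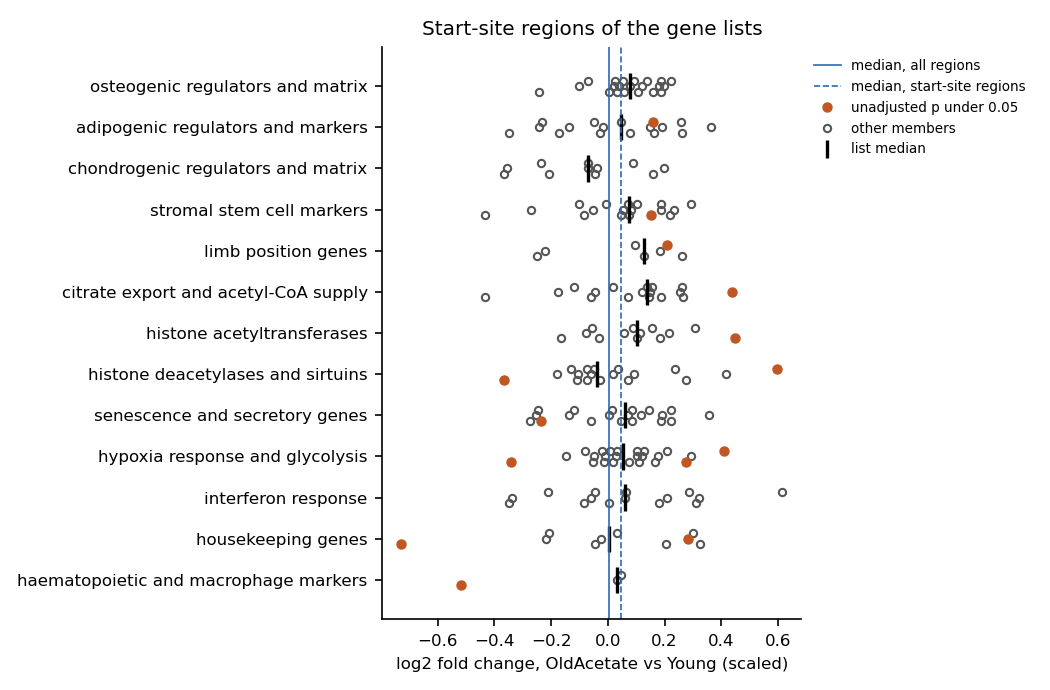
Scaled log2 fold change of OldAcetate vs Young (horizontal axis) of the start-site regions of 13 gene lists, 1 point per region, with filled points for an unadjusted p under 0.05 and black bars for list medians. Vertical lines are the medians of all regions (0.00) and of start-site regions (0.05); list medians lie between -0.07 (chondrogenic) and 0.14 (acetyl-CoA supply), and no region passed the adjusted threshold.

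The calls of 3 further regions, chosen after their values were seen, differed between fits. They are a region of 6500 bp at Gm10801 (chr2:98661501-98668000, 45.5% repeats), a region of 21500 bp at Sfi1 (chr11:3183501-3205000, 40.9% repeats) and a region of 7500 bp that overlaps an annotated ribosomal RNA gene and is nearest to Esp38 (chr17:39842001-39849500). Reads from repeated sequence cannot be assigned to a single copy. Their levels of 40.9, 14.3 and 52.9 RPM per kb were far above the 2.88 RPM per kb of the median region. The Gm10801 region was at 183 and 301 RPM in Young and 257 and 323 RPM in OldAcetate, the Sfi1 region at 234 and 329 RPM in Young and 353 and 317 RPM in OldAcetate, and the Esp38 region at 206 and 523 RPM in Young and 390 and 467 RPM in OldAcetate. The 2 Young libraries enclosed or nearly enclosed the OldAcetate values in each. With both Young libraries the log2 fold changes were 0.41 (SE 0.45), 0.39 (SE 0.32) and 0.49 (SE 0.73), and none was called. With the replicate number as a block, although the numbers were not taken as pairs, all 3 were called with the 4 libraries and the same log2 fold changes (limma, adjusted p = 0.000286, 0.000286 and 5.77e-10). Without Young replicate 2 they were 0.85, 0.71 and 1.25, and all 3 were called by limma (adjusted p = 0.000159, 1.38e-05 and 1.46e-08), where the lone Young library is assumed to vary like the OldAcetate libraries.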

How the data were processed

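H3ac CUT&RUN was measured in 2 Young and 2 OldAcetate libraries of mouse MSCs. The table the authors deposited is named as RPKM, but its values are RPM, since 100% were whole multiples of the value of 1 read (tolerance 0.01) whatever the region length. Reads and library totals were recovered from these steps. The submitters' processing notes name Bowtie2, Picard and mm10. How peaks were called is not given in the sources used here, and neither is whether the yeast DNA added at the stop step was used for scaling. Groups were taken from the labels. Regions were annotated with GENCODE M21 (GRCm38), taking start sites of protein-coding genes within 1 kb, and sequence content was read from the RefSeq GRCm38 genome.

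The test of each region used limma 3.58.1 (R 4.3.3; group only, eBayes with trend and robust, two-sided, Benjamini-Hochberg threshold 0.05) on log2(RPM + 0.5), a scale that understates changes of low regions. The fit was made with the values as given and after median-of-ratios scaling (factors from 0.952 to 1.10). Single values per library were compared by exact permutation tests. The alternatives were pseudocounts of 0.1 and 1, removal of the lowest 25% of regions, quantile normalization, autosomal factors, all 6 libraries in a single fit, the replicate number as a block, eBayes without trend and robust, library omission, edgeR 4.0.16 (RLE, TMM or library totals) and DESeq2 1.42.0. The fits were tested on simulated data. Per direction, the 6 regions with the lowest p among those of at least the median level with separate groups were named, with 3 members of lowest p and 2 of highest RPM per kb in each of 16 lists and 10 fixed genes. Of the regions and genes this rule takes, 5 are not reported here. The members, lists and naming rule were chosen with earlier results of these data known. Figures were drawn with matplotlib 3.10.9.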

Additional observations from a re-analysis of the deposited data

How the results depend on the processing

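The labels number the replicates alike in both groups, but the replicate 1 minus 2 differences of the groups had a correlation across regions of -0.03, so the numbers were not taken as pairs. With the replicate number as a block, 4 regions were called after scaling and 0 with the values as given. They were those at Gm10801 and Sfi1, that nearest to Esp38, and an intergenic region 23172 bp from the start of Isg20. The last, coded Y alone, was at 7.57 and 9.80 RPM in Young and 1.34 and 2.09 RPM in OldAcetate (log2 fold change -1.96). Leaving out single libraries gave 0 to 3 calls after scaling and 0 to 4 with the values as given, where Pfkfb2 (lower) joined Gm10801, Sfi1 and Esp38 without Young replicate 2. Without trend and robust, 9 regions were called with the values as given, all lower and coded Y alone. The other alternatives called 0 regions. With single libraries left out, the X minus autosome difference ran from -0.038 to 0.099, the long minus short difference from -0.012 to 0.032 and the high minus low GC difference from -0.0077 to 0.030. Over start-site regions only, the last 2 were -0.029 and -0.019. None of these differences had passed a test.

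Some named regions, none of them called, changed sign. With the values as given, where the median over all regions was -0.11, log2 fold changes became -0.061 at Tnfrsf11b, -0.044 at Mpc2, -0.022 at Hat1, -0.021 at Hdac2, -0.030 at Igfbp7, -0.067 at Cd68, -0.081 at Spi1, -0.089 at Sp7, -0.069 at Cdkn2a and -0.032 at Pdgfra. With single libraries left out, the ranges were -0.032 to 0.14 at Tnfrsf11b, -0.094 to 0.35 at Meis1, -0.069 to 0.21 at Mpc2, -0.29 to 0.047 at Mpc1, -0.0075 to 0.32 at Kat2b, -0.16 to 0.33 at Hat1, -0.072 to 0.26 at Hdac2, -0.16 to 0.018 at Sirt3, -0.75 to 0.050 at Psmb9, -0.071 to 0.019 at Ppia, -0.093 to 0.19 at Cd68, -0.084 to 0.15 at Spi1, -0.90 to 0.17 at Klf1, -0.33 to 0.036 at Erg, -0.15 to 0.028 at Slc25a1, -0.51 to 0.16 at Acly, -0.031 to 0.85 at Gm10801 and -0.26 to 1.25 at Esp38. The cause was not tested.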
